A study of Mus musculus with 2 samples.

Results

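The genes described are 10 subunits of the Polycomb repressive complexes in mouse embryonic stem cells, taken by their symbols from a table of read counts with 24061 gene rows. They are Ezh1, Ezh2, Eed, Suz12, Jarid2 and Mtf2 of complex PRC2, and Ring1, Rnf2, Cbx7 and Pcgf6 of complex PRC1. Each symbol stood on a row of the table, and all 10 passed the minimum of 20 counts summed over both libraries that left 14213 measured genes. The rule takes the genes by name and sets no threshold on a measured value, but the names were chosen with earlier results of these data known.

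The study compared RNA of C57BL/6 embryonic stem cells labelled mES-control with RNA of cells labelled mES-Pc4-OE, where OE stands for overexpression of Pc4, a transcriptional coactivator encoded by Sub1. Both grew over feeder layers of mouse embryonic fibroblasts (MEFs) in medium with LIF (leukaemia inhibitory factor), the control at passages 17 to 23 and the Pc4-OE cells at passages 24 to 37, so passage and group cannot be told apart. The series text describes 3 overexpressing lines picked as colonies after infection with a Venus-expressing lentivirus. Which of those lines gave the library is not stated in the labels. There was 1 library per group, so no difference below has a replicate check and no p-value is given. Total counts were 10571463 in the control and 10194783 in the Pc4-OE library. Sub1 itself stood at 530.3 CPM (read counts scaled to a common library size) in the control and at 235.0 CPM in the other library, a 2.26-fold deficit (interval 2.15 to 2.37) that goes against the label. Each library keeps the name its label gives, and if those labels were exchanged every ratio and share difference below would turn round. Whether they were exchanged was not tested, and whether transcripts of the introduced gene count towards the Sub1 row is not given in the sources used here. All 13 embryonic stem cell markers were measured in both libraries, and their summed level was 6998 CPM in the control and 5584 CPM in the Pc4-OE library. The 24 fibroblast markers summed to 8489 CPM and 21046 CPM, and the 17 macrophage markers to 224.0 CPM and 591.2 CPM. Of the macrophage sums, Laptm5 alone held 109.6 CPM in the control and 131.6 CPM in the Pc4-OE library, a log2 ratio of 0.26. Every marker of both lists had a ratio above 1, and none was at 0 in either library. Lox, Fbln2, Acta2 and Mmp2 had the fibroblast intervals farthest from a ratio of 1, with log2 ratios of 2.43, 2.41, 2.54 and 2.06. Of the macrophage markers these were C1qc, Tyrobp, C1qa and Lyz2, at 3.68, 3.38, 3.10 and 2.33. C1qc, Tyrobp and C1qa had only 8, 12 and 11 counts in the control, and averaged 5 CPM only through the Pc4-OE library. With 0.5 CPM added to both levels their log2 ratios were 3.03, 2.92 and 2.62.

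PRC2 places repressive methyl groups on histone H3, and PRC1 attaches ubiquitin to histone H2A and compacts chromatin. Together they keep developmental regulators, among them the Hox genes, silent in embryonic stem cells. PRC2 needs a catalytic subunit, EZH2 or its paralogue EZH1, with EED, which reads the methyl mark, and SUZ12, which holds the core together. JARID2 and MTF2 are alternative accessory subunits that bring PRC2 to its targets. In PRC1, RNF2 (also called RING1B) or its paralogue RING1 is the ubiquitin ligase, CBX7 is the chromodomain subunit that binds the methyl mark in undifferentiated cells, and PCGF6 marks a variant form of the complex.

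The promoters of Ezh1 and Ezh2 are shown because these paralogues differed in opposite directions, and that of Jarid2 because it had the lowest ratio of the 10. Jarid2 had another start, not shown, whose window held CCAAT and TATAAA. The promoter of Suz12 is shown because it held an E2F-type match, as Ezh2 did in another spelling. Each runs 5′ to 3′ on the gene's strand from 250 bases before a RefSeq transcript start to 20 bases after it, on GRCm38. Capitals mark a match to an E2F-type motif (TTTCCCGC, TTTCGCGC, TTTGCCGC or TTTGGCGC) or to CCAAT, on either strand. The regions are chr11:101226444-101226713 on the minus strand for Ezh1, chr6:47595011-47595280 on the minus strand for Ezh2, chr13:44730524-44730793 on the plus strand for Jarid2, and chr11:79992856-79993125 on the plus strand for Suz12.
Ezh1: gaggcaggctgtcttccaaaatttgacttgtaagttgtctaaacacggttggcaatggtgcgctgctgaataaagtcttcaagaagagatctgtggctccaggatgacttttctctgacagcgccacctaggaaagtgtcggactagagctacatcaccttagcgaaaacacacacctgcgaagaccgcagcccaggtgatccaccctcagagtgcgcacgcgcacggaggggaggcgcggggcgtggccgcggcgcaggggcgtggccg
Ezh2: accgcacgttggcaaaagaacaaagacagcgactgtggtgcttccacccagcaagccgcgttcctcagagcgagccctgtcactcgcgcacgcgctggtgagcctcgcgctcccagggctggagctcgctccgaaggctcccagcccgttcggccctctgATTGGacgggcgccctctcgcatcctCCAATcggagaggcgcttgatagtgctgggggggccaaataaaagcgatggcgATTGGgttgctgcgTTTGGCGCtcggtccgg
Jarid2: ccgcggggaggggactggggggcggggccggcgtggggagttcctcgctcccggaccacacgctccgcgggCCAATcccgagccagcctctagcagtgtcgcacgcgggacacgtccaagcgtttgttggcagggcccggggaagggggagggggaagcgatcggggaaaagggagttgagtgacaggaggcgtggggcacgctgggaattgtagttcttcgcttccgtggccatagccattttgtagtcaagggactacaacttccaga
Suz12: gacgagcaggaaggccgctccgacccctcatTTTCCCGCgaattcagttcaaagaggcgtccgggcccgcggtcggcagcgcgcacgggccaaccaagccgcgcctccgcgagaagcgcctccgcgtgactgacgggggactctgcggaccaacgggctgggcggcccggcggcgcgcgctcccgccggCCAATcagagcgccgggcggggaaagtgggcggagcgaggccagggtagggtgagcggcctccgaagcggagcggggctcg

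All 10 members matched a RefSeq promoter window by gene ID, with 12 windows of 300 bases in all, since Jarid2 and Mtf2 had several starts. The E2F-type motifs stood in 2 of the 12, those of Ezh2 and Suz12 (16.7%), against 2.26% of 32851 windows of all genes and 3.80% of 14309 windows of measured genes. CCAAT stood in 7 of the 12 windows (58.3%), from 6 genes, against 37.4% of all windows. Other PRC2 and PRC1 subunits, described further down, had 34 windows from 23 genes. Of these 34, an E2F-type motif stood in 1 (2.94%) and CCAAT in 10 (29.4%). The Ezh1 stretch held neither motif, while Ezh2 held CCAAT on either strand at 3 places. Member windows held a median of 27 CpG dinucleotides, against 7 over all windows and 20 over windows of measured genes. A match is a description of the letters and says nothing of binding.

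Of the 10 genes, 8 had a ratio of Pc4-OE to control below 1, where 50.7% of measured genes did, and 2 had a ratio above 1. The median log2 ratio was -0.41 against -0.01 over all measured genes. The count below 1 was 7 with library totals as the scale and 6 when the reference genes set the scale. The median of all measured genes was 0.03 and 0.28 on those scales, so the share of 50.7% does not carry over to these counts. The PRC2 catalytic paralogue Ezh1 stood apart as the only member whose counting interval lay above 1. Jarid2 was the only member that met the 2-fold rule, a ratio of at least 2 either way with an interval that excludes 1. This was 1 of 10 in the lower direction, where 4.02% of measured genes met it, and 0 of 10 in the higher direction, where 11.8% did. Intervals are exact binomial intervals of both counts at the 95% level and cover counting error only. They lay wholly below 1 for 7 of the 10 genes, against 33.1% of measured genes, and wholly above 1 for 1, against 31.2%. Because narrow intervals come with high counts, the 9 members with at least 1000 counts summed were set beside the 5173 genes at that depth. The interval lay below 1 for 7 of these 9 members and for 50.0% of those genes, and above 1 for 1 of the 9 and for 30.5%. This comparison at matched depth was chosen after the values were seen.

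The scale matters for values of this size. The 12 reference (housekeeping) genes had a median log2 ratio of -0.30, and setting it to 0 raises every log2 ratio by 0.30. Those with intervals farthest from a ratio of 1 were Ywhaz (-0.86), Polr2a (-0.72), Actb (-0.53) and Tfrc (-0.39). With the reference genes at 0, the median of all measured genes was 0.28. On that scale Suz12 stood at 0.11 and Pcgf6 at 0.25, while Jarid2 (-0.87), Ezh2 (-0.26), Mtf2 (-0.23), Eed (-0.19), Rnf2 (-0.15) and Cbx7 (-0.08) remained below a ratio of 1, and Ezh1 reached 1.20. With library totals in place of scaled totals Pcgf6 was at 0.00. Ratios between genes within a library, given further down, do not depend on the scale.

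**Figure D1:**
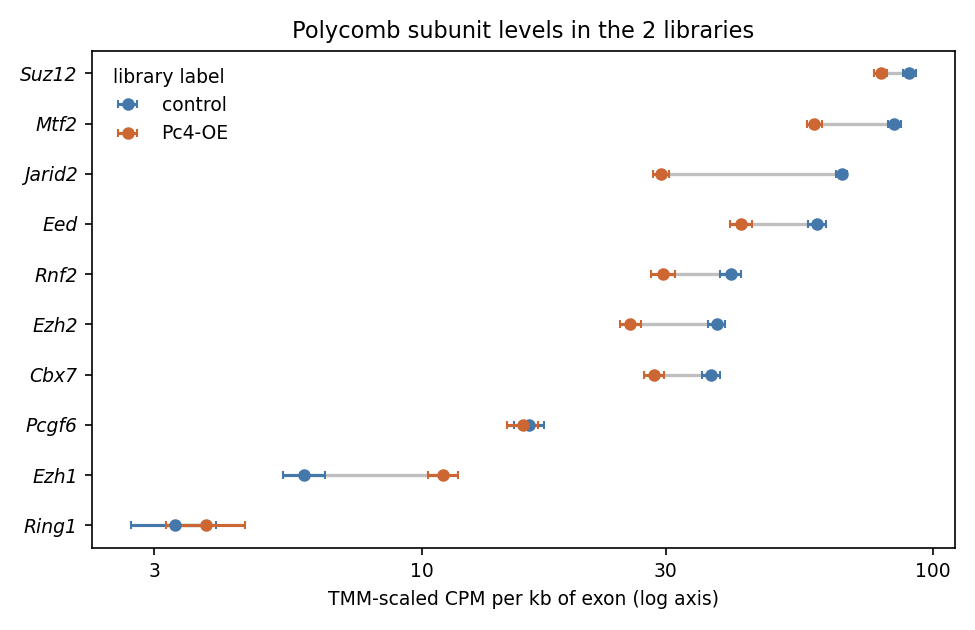
TMM-scaled CPM per kilobase of exon on a log axis for the 10 Polycomb genes, 1 point per library with its exact Poisson interval (counting error only), joined by a grey line. Jarid2 shows the widest drop, from 66.2 to 29.4, and Ezh1 lies higher in the Pc4-OE library, at 11.0 against 5.89.

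Among the PRC2 core genes, Ezh2 (chromosome 6, 47530274 to 47595270, GRCm38) had 2622 counts or 251.8 CPM in the control and 1769 counts or 170.9 CPM in the Pc4-OE library. The Pc4-OE library was the lower one, by 1.47-fold (interval 1.39 to 1.57). The RefSeq gene table places a long noncoding RNA gene, F830010H11Rik, over Ezh2, and since the strand setting of the counting is not given, shared reads cannot be told apart. Eed (chromosome 7, 89954654 to 89980976) had 2360 counts or 226.6 CPM in the control and 1670 counts or 161.4 CPM in the Pc4-OE library, 1.40-fold lower (1.32 to 1.50). Suz12 (chromosome 11, 79993106 to 80034123) was nearest to equal among the 3, with 4623 counts or 444.0 CPM in the control and 4041 counts or 390.4 CPM in the Pc4-OE library, 1.14-fold lower (1.09 to 1.19). The core genes therefore did not differ by one common factor between the libraries: per kilobase of exon, Suz12 was 2.38 times Ezh2 in the control (2.27 to 2.50) and 3.08 times in the Pc4-OE library (2.92 to 3.26). With the longest transcript as the length these ratios were 1.12 and 1.46. Against Ezh2 and Eed together, the odds of a Suz12 count were 1.27 times as high in the Pc4-OE library (interval 1.19 to 1.35).

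Ezh1 (chromosome 11, 101191115 to 101226463), the catalytic paralogue that is better known from non-dividing and differentiated cells, had 456 counts or 43.8 CPM in the control and 849 counts or 82.0 CPM in the Pc4-OE library. It was 1.87-fold higher in the latter (interval 1.67 to 2.10), a log2 ratio of 0.91 that did not meet the 2-fold rule on this scale. The fibroblast markers (median log2 ratio 1.29, all 24 above 1) and the macrophage markers (median 2.10, all 17 above 1) moved the same way, and their part in the Ezh1 value was not tested. In bulk RNA, fewer cells of a type and less RNA per cell cannot be told apart.

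Jarid2 (chromosome 13, 44730774 to 44921643) had 6698 counts or 643.2 CPM in the control and 2958 counts or 285.8 CPM in the Pc4-OE library, 2.25-fold lower (interval 2.16 to 2.35). Of the 10 genes it had the largest difference in either direction on this scale, whereas with the reference genes at 0 Ezh1 (1.20) was farther from a ratio of 1 than Jarid2 (-0.87). Mtf2 (chromosome 5, 108065660 to 108109219), a Polycomb-like protein that binds CpG-rich DNA, had 4987 counts or 478.9 CPM in the control and 3454 counts or 333.7 CPM in the Pc4-OE library. That is 1.44-fold lower (1.37 to 1.50), on a chromosome whose other genes had a median log2 ratio of -0.32.

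Of the PRC1 genes, Rnf2 (chromosome 1, 151469398 to 151500991) had 1729 counts or 166.0 CPM in the control and 1266 counts or 122.3 CPM in the Pc4-OE library, 1.36-fold lower (interval 1.26 to 1.46). Cbx7 (chromosome 15, 79915804 to 79971143) had 2487 counts or 238.8 CPM in the control and 1909 counts or 184.4 CPM in the Pc4-OE library, 1.29-fold lower (1.22 to 1.38). The RefSeq span of Cbx7 overlaps Apobec3, a protein-coding gene, so its count may share reads. For the other PRC1 members the interval included equality. Pcgf6 (chromosome 19, 47033617 to 47050939) had 848 and 819 counts, 81.4 CPM in the control and 79.1 CPM in the Pc4-OE library (log2 ratio -0.04, interval -0.18 to 0.10). Ring1 (chromosome 17, 34020792 to 34024680) had 111 and 127 counts, 10.7 CPM in the control and 12.3 CPM in the Pc4-OE library (log2 ratio 0.20, interval -0.18 to 0.58), the widest interval of the 10. All 10 genes are protein-coding.

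Levels can be ordered between genes only per length, here CPM per kilobase of the union of GENCODE M21 exons. In the control the order was Suz12 (89.8), Mtf2 (84.1), Jarid2 (66.2), Eed (59.2), Rnf2 (40.2), Ezh2 (37.7), Cbx7 (36.8), Pcgf6 (16.2), Ezh1 (5.89) and Ring1 (3.29). The counting intervals of Rnf2 (38.4 to 42.2) and Ezh2 (36.3 to 39.2) overlapped, as did those of Ezh2 and Cbx7 (35.4 to 38.3). In the Pc4-OE library Suz12 (79.0) and Mtf2 (58.6) still led, Eed (42.2) came next, and Jarid2 (29.4) lay within the counting intervals of Rnf2 (28.0 to 31.3) and Cbx7 (27.2 to 29.7). Ezh2 followed at 25.6, then Pcgf6 at 15.7, Ezh1 at 11.0 and Ring1 at 3.78. Among measured genes with a length, Suz12 stood at the 97.0th percentile of the control and Ezh2 at the 89.6th, while Ezh1 stood at the 48.0th in the control and at the 64.4th in the Pc4-OE library. With the longest transcript as the length, Mtf2 (118.0) led in the control, ahead of Eed (109.6), Suz12 (101.5) and Ezh2 (90.3), so the order within the upper group depends on the length used.

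Subunits that replace each other were then compared within each library, where the scaling cancels. Per kilobase, Ezh2 was 6.41 times the level of Ezh1 in the control (interval 5.80 to 7.09) and 2.32 times in the Pc4-OE library (2.14 to 2.52). Ezh1 thus made up 13.5% of the summed EZH level in the control and 30.1% in the Pc4-OE library, and the odds of an Ezh1 count against Ezh2 were 2.76 times as high in the latter (2.42 to 3.15). Rnf2 was 12.2 times the level of Ring1 in the control (10.1 to 15.0) and 7.83 times in the Pc4-OE library (6.52 to 9.48), and the odds of a Ring1 count were 1.56 times as high (1.19 to 2.06). Both paralogue pairs therefore shifted towards the member with the lower level, by more than counting error and with no replicate check. Of genes with at least 1000 counts summed, 50.0% had an interval below 1 and 30.5% above it. Over all measured genes the shares were 33.1% and 31.2%. Pairs outside the Polycomb families were not compared, so whether such a shift is particular to these genes was not tested.

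The Polycomb-like family likewise shifted away from its leading member. Mtf2 held 93.1% of the family's per-kilobase level in the control and 86.0% in the Pc4-OE library, while its paralogue Phf1 went from 3.88% to 10.01%. Phf1 had 127 counts or 12.2 CPM in the control and 246 counts or 23.8 CPM in the Pc4-OE library, 1.95-fold higher (interval 1.57 to 2.43). Among Cbx2, Cbx6, Cbx7 and Cbx8, chromodomain subunits, Cbx7 held 69.4% in the control and 63.2% in the Pc4-OE library, and the odds of a Cbx7 count against the other three were 1.42 times lower in the latter (1.29 to 1.57). Cbx6 went from 13.7% to 19.7%. The PCGF family did not show this for the member studied: Pcgf6 held 27.4% in the control and 27.0% in the Pc4-OE library, with an odds ratio of 0.97 (0.87 to 1.09). Pcgf2, which leads this family per kilobase, went from 40.9% to 36.2%.

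**Figure D2:**
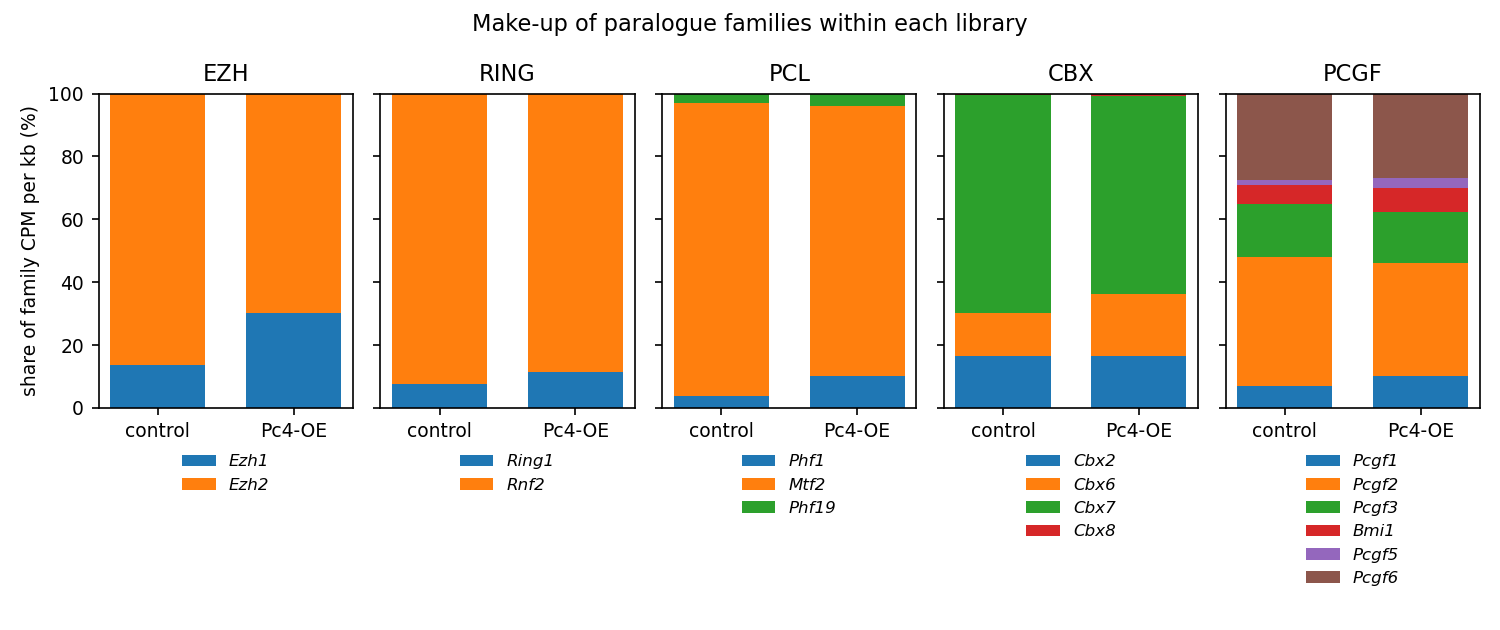
Share (%) of the summed CPM per kilobase of exon that each paralogue holds within its family, in the control and the Pc4-OE library, for the EZH, RING, Polycomb-like (PCL), CBX and PCGF families. Ezh1 takes 13.5% of its family in the control and 30.1% in the Pc4-OE library, while the share of Pcgf6 is 27.4% and 27.0%.

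Another 29 PRC2 and PRC1 subunits of a fixed list had a median log2 ratio of 0.08, with 16 above a ratio of 1 and 13 below it, against -0.41 for the 10 members and -0.01 for all measured genes. All 29 were measured. The 2-fold rule was met by 1 in the higher direction, where 11.8% of measured genes met it, and by 2 in the lower direction, where 4.02% did. With the chromosome 5 genes left out their median was 0.19. The higher one was Scml2, which encodes a PRC1-associated protein, with 98 counts in the control and 388 in the Pc4-OE library, 3.98-fold higher (interval 3.18 to 5.02). The 2 lower ones were Kdm2b and E130012A19Rik. Kdm2b, the CpG-island-binding subunit that recruits a variant PRC1, had 1743 counts or 167.4 CPM in the control and 660 counts or 63.8 CPM in the Pc4-OE library, 2.62-fold lower (log2 ratio -1.39, interval -1.52 to -1.26). It lies on chromosome 5, like Mtf2, and its 20 neighbours had a median log2 ratio of -0.41. E130012A19Rik, the older symbol of Epop, an accessory PRC2 subunit of embryonic stem cells, had 2630 counts or 252.6 CPM in the control and 1293 counts or 124.9 CPM in the Pc4-OE library, 2.02-fold lower (1.89 to 2.16). With library totals as the scale E130012A19Rik (-0.97) did not meet the 2-fold rule and Phf1 (1.01) did.

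Among the other PRC2 genes, Rbbp4, a histone-binding core subunit shared with other complexes, had a log2 ratio of -0.19 (interval -0.25 to -0.14), the same as Suz12. Aebp2, which joins Jarid2 in one form of PRC2, had 1270 and 1536 counts and a log2 ratio of 0.28 (0.17 to 0.39), opposite to Jarid2. Pcgf5, of the variant PRC1 complexes, had 133 counts in the control and 238 in the Pc4-OE library, 1.80-fold higher (1.45 to 2.24). Rybp, a defining subunit of variant PRC1 complexes, had 1053 counts in the control and 658 in the Pc4-OE library, 1.59-fold lower (1.44 to 1.76). For the higher genes of this list, as for Ezh1, the fibroblast and macrophage markers lay in the same direction, and their part was not tested.

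**Figure D3:**
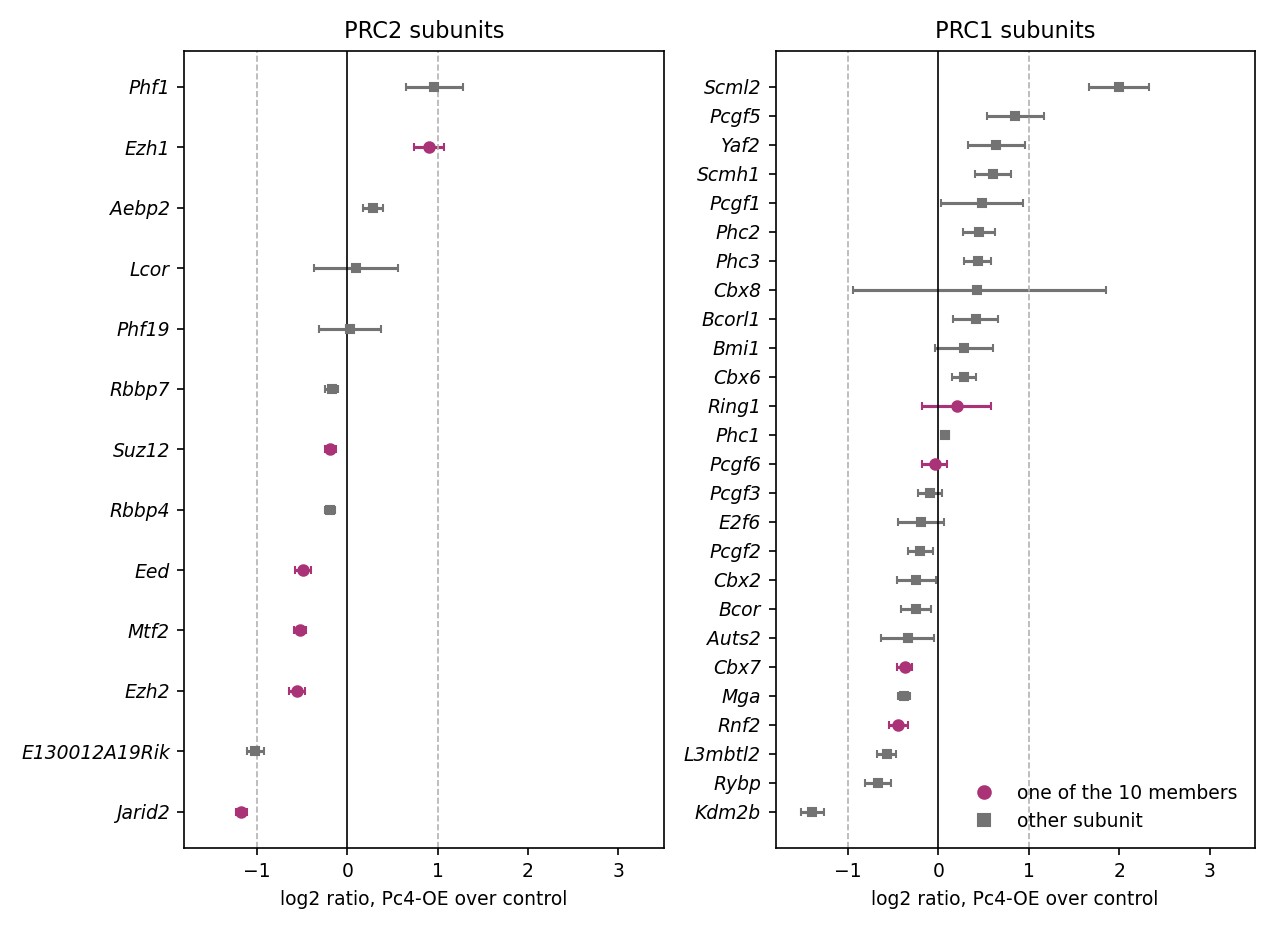
Log2 ratio of Pc4-OE over control for 13 PRC2 genes (left) and 26 PRC1 genes (right), with exact binomial intervals for counting error. The solid line marks a ratio of 1 and the dashed lines 2-fold. Jarid2 (-1.17) and Kdm2b (-1.39) are the lowest of their complexes, and Phf1 (0.96) and Scml2 (1.99) the highest.

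Position on the chromosome was compared because chromosome 5 as a whole was lower. Each member was set beside its 10 nearest genes on either side among those averaging 5 CPM or more. Of the 10 members, 7 lay below the median of their neighbours and 3 (Ezh1, Ring1 and Pcgf6) above it. The share of all measured genes below their neighbours' median is not given, and the neighbours were not matched in depth. These counts are therefore not read as a result about the members. Jarid2 had a log2 ratio of -1.17 beside a neighbour median of 0.02, Ezh2 had -0.56 beside 0.02, Eed -0.49 beside 0.06, and Ezh1 0.91 beside 0.08. Mtf2, at -0.52, stood beside a neighbour median of -0.31, with 16 of its 20 neighbours below a ratio of 1, so it was 0.20 below its chromosome on the log2 scale (-0.20 after subtracting the chromosome median). Cbx7, at -0.37, stood beside -0.14, and Rnf2, at -0.44, beside -0.05. Pcgf6 had -0.04 where its neighbours had a median of -0.31. After the chromosome medians were subtracted, the median of the 10 was -0.22 rather than -0.41.

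**Figure D4:**
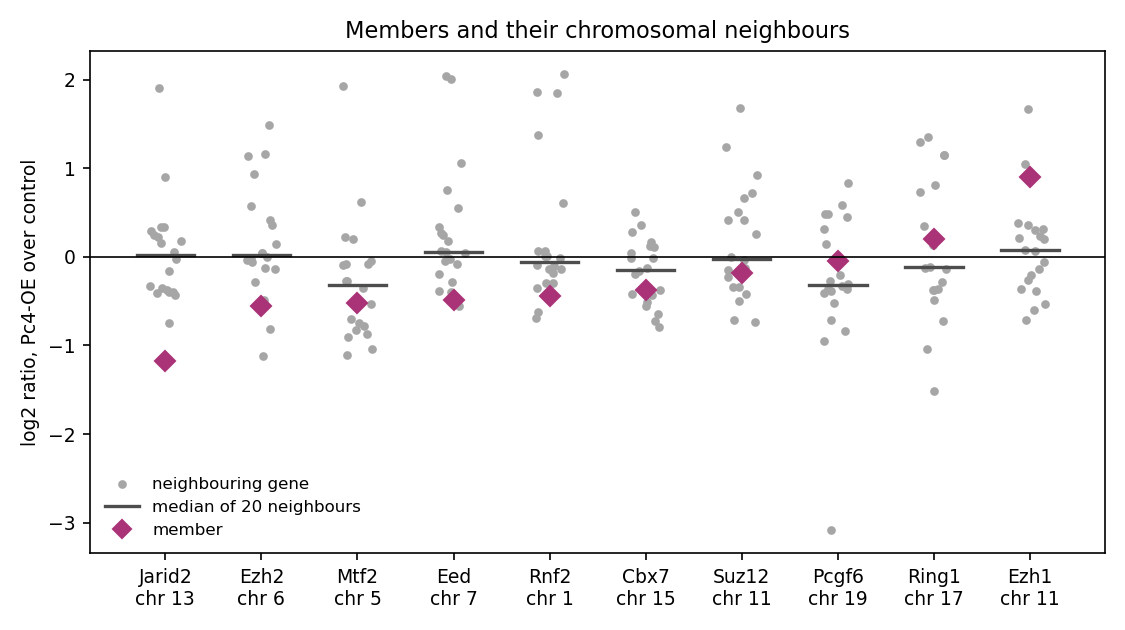
Log2 ratio of Pc4-OE over control for each member (diamond), for its 20 nearest genes averaging 5 CPM or more (grey points) and for the median of those neighbours (line). Jarid2 lies at -1.17 under a neighbour median of 0.02, while Mtf2 (-0.52) lies near that of chromosome 5 neighbours (-0.31).

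Summed counts of genes that Polycomb is known to hold silent were larger in the Pc4-OE library than in the control, although single genes went the other way. Over all 39 Hox genes in a fixed list, with no filter, counts summed to 541 in the control and 1240 in the Pc4-OE library, 51.9 CPM and 119.8 CPM, 2.31-fold higher (interval 2.08 to 2.56). Only 24 of the 39 reached 20 counts, some of them through the higher library alone, so no count or median over these 24 is read as a result. Hoxc8 had 28 and 123 counts (4.42-fold higher, 2.91 to 6.92), Hoxb9 57 and 212 (3.74-fold, 2.78 to 5.11) and Hoxc6 59 and 162 (2.76-fold, 2.04 to 3.79). The clusters were unequal: summed Hoxa counts were 111 and 157 (1.42-fold, 1.11 to 1.83), Hoxb counts 232 and 522 (2.26-fold, 1.94 to 2.65), Hoxc counts 155 and 449 (2.91-fold, 2.42 to 3.52) and Hoxd counts 43 and 112 (2.62-fold, 1.83 to 3.82). Hoxb13, named after its values were seen, was lower, with 37 counts in the control and 14 in the Pc4-OE library. Neighbouring Hox genes share exons and overlapping transcripts, so counts of single genes are uncertain.

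The other 51 Polycomb-regulated genes, mostly lineage transcription factors, summed to 1225 counts in the control and 2326 in the Pc4-OE library, 1.91-fold higher (interval 1.78 to 2.05). Without Cdkn2a and Cdkn2b the sums were 869 and 1154 (1.34-fold, 1.22 to 1.46). Cdkn2a, which encodes cell cycle inhibitors at a locus repressed by Polycomb, had 184 and 613 counts (3.35-fold higher, 2.84 to 3.97), and its neighbour Cdkn2b had 172 and 559 (3.27-fold, 2.75 to 3.90). Per kilobase, Cdkn2a stood at the 72.3rd percentile of measured genes in the control and at the 93.8th in the Pc4-OE library. Only 19 of the 51 reached 20 counts, some again through the higher library alone. In the other direction, Sox1, a neural factor, had 89 counts in the control and 36 in the Pc4-OE library (2.46-fold lower, 1.65 to 3.73), and Eomes, a mesendoderm factor, had 161 and 85 counts (log2 ratio -0.91, -1.31 to -0.52). The fibroblast markers (24 of 24) and the macrophage markers (17 of 17) were higher in the same library, and their part in the Hox and Cdkn2a values was not tested.

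**Figure D5:**
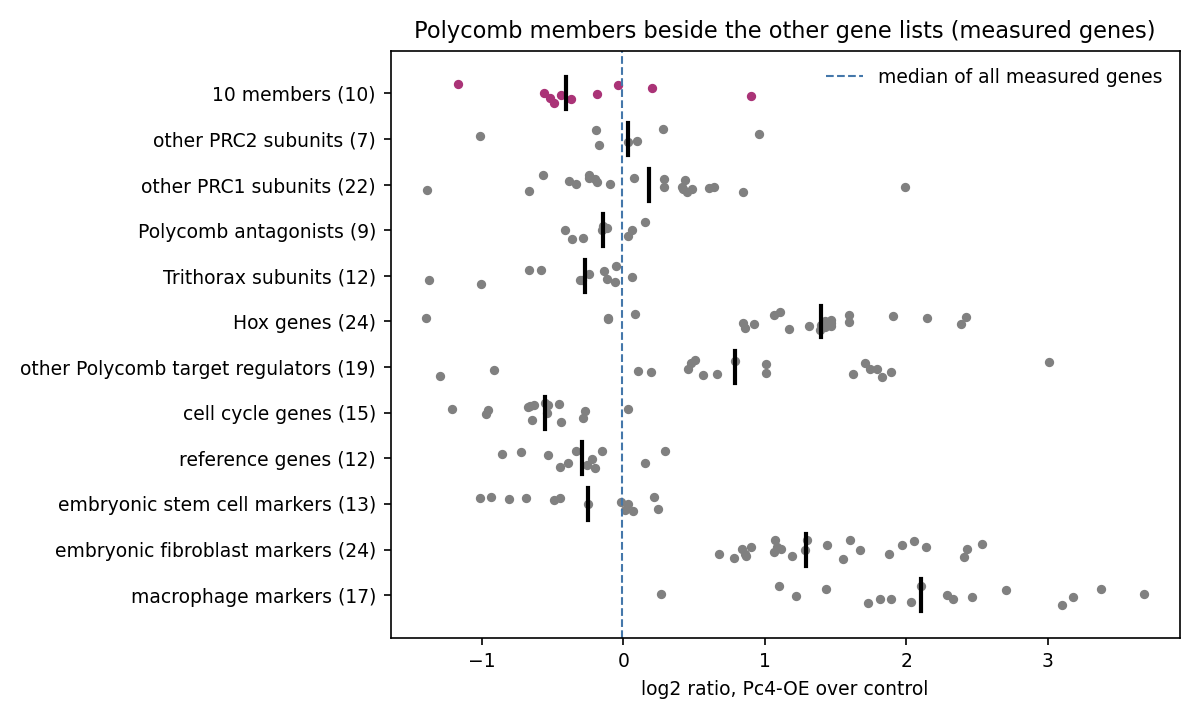
Log2 ratio of Pc4-OE over control for every measured gene of the 10 members and of the 11 other lists, 1 point per gene, with the number measured in brackets. Thick bars are list medians, -0.41 for the members and 1.29 for the fibroblast markers, and the dashed line is the median of all measured genes (-0.01). Many Hox and target genes under the count minimum are absent from their rows.

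Opposing activities were compared last. Of 9 Polycomb antagonists, which remove the ubiquitin or methyl marks or belong to those complexes, 0 met the 2-fold rule in either direction. Of measured genes, 11.8% met it in the higher direction and 4.02% in the lower, so 0 of 9 is little apart from those shares. Their median log2 ratio was -0.15 (0.15 when reference genes set the scale, where the median of all measured genes was 0.28). Kdm6a, a demethylase for the PRC2 mark, had 855 and 639 counts (log2 ratio -0.41, interval -0.56 to -0.26). Foxk2, a partner of BAP1 (-0.36, -0.49 to -0.24), and Usp16, an H2A deubiquitinase (-0.29, -0.46 to -0.12), lay in the same direction, while Asxl1, a cofactor of the deubiquitinase BAP1, had 1804 and 1994 counts (0.15, 0.06 to 0.25). Of 12 Trithorax-type methyltransferase subunits, 11 stood under a ratio of 1, where 50.7% of measured genes did, and the median was -0.27 (0.026 when reference genes set the scale). The interval lay below 1 for 8 of the 12 and above 1 for 0. Among measured genes with at least 1000 counts summed, a depth all but Setd1b reached, these shares were 50.0% and 30.5%. Setd1b (597 and 229 counts, 2.59-fold lower, 2.22 to 3.03) and Kmt2c (2451 and 1213 counts, 2.01-fold lower, 1.87 to 2.15) met the 2-fold rule, 2 of 12 where 4.02% of measured genes met it in the lower direction, and both lie on chromosome 5. The subunits Men1 (-0.67, -0.83 to -0.50) and Dpy30 (-0.58, -0.70 to -0.46) followed. With library totals Kmt2c (-0.96) did not meet the 2-fold rule.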

How the data were processed

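The authors' deposited table holds raw read counts per gene, 1 column per library, from stranded poly(A) libraries. Per the submitters' processing notes, reads were handled with STAR 2.4.1c and featureCounts on mm10. For the annotation, the strand setting and multi-mapping reads, no choice is given in the sources used here. The members and lists were chosen with earlier results of these data known.

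Counts were scaled to CPM on TMM effective library sizes (edgeR 4.0.16). Ratios are Pc4-OE over control with no pseudocount added. They cover the 14213 genes that reached 20 counts over both libraries, with exact binomial (Clopper-Pearson) intervals at 95%, which cover counting error only. Total counts were 10571463 and 10194783. With 1 library per group no test was made. Positions and promoters came from RefSeq (GRCm38, of which mm10 is a copy), and exon lengths from GENCODE M21. A gene of the lists is not reported here and enters no list value. All 10 members were named, with Sub1 and, from each other list, the 4 genes of at least 5 CPM on average whose interval bound lay farthest from a ratio of 1. The Hox list had fewer than 4 genes at that level, and Hoxc8, Hoxb9 and Hoxc6 were named. Cbx6, Pcgf2, Nanog, Klf4, Dppa5a and Laptm5 were named after their values were seen. The other scalings, filters, pseudocount, error model and gene lengths tried are in the closing section. The steps were tested on simulated data.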

Additional observations from a re-analysis of the deposited data

How the results depend on the processing

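No paired analysis was possible because each group had 1 library, and for the same reason no replicate could be left out. Setting the median of the 12 reference genes to 0 gave 0 members 2-fold lower and 1 (Ezh1) 2-fold higher. The share of all measured genes that met the rule on that scale is not given, so these counts have no background. The median of all measured genes was then 0.28. Beside it, the member median was -0.11, that of the other PRC2 and PRC1 subunits 0.37 and that of the Polycomb targets 1.47. The signs reversed for the medians of the antagonists (0.15) and the Trithorax subunits (0.026) and for the log2 ratio of Suz12 (0.11). Both medians stayed below that of all measured genes. The shift of 0.30 follows from the scaling itself. With an assumed biological coefficient of variation of 0.4, 0 members met the 2-fold rule, 0 had an interval below 1, 1 of the other subunits met the rule either way, and 10 targets were 2-fold higher. Minus the chromosome median, the member median was -0.22 and that of the targets 1.30. With chromosome 5 left out, a choice made after seeing the data, the other subunits had a median of 0.19. The target median was 1.17, and it was 0.996 with a pseudocount of 0.5 CPM, 1.01 with no count minimum and 0.79 with 100 counts. On the main setting 25 of 43 measured targets were 2-fold higher, where 11.8% of measured genes were. With 100 counts 5 of 11 were. For that setting and the assumed variation, no share over all measured genes is given. Genes that reach the minimum through the higher library alone shape these target counts and medians, so none of them is read as a result. With the longest transcript as length, Ezh2 over Ezh1 was 8.68 in the control and 3.15 in the Pc4-OE library. Median-of-ratios size factors moved no member log2 ratio outside its counting interval. Depth limits Ring1 most, at 238 counts summed.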

Other observations

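Cell cycle genes, which include known E2F targets like Ezh2, were set beside the Polycomb genes. Of 15 in a fixed list, 14 had a ratio below 1 and an interval below 1, where 50.0% of measured genes with at least 1000 counts had one, the depth that all 15 reached, with a median log2 ratio of -0.56. Ccne1, cyclin E1, met the 2-fold rule (3283 and 1407 counts, 2.32-fold lower, interval 2.18 to 2.47). Pcna, the replication clamp, had 2033 and 1038 counts (log2 ratio -0.96, -1.07 to -0.85), and the helicase genes Mcm7 (-0.97) and Mcm2 (-0.67) lay in the same direction, Mcm7 on chromosome 5. E2f1 itself, named after its values were seen, had 795 and 810 counts (log2 ratio 0.04, -0.11 to 0.18). Ezh2, at -0.56, equalled the median of this list, while Jarid2 was lower and Suz12 and Pcgf6 were nearer to 0.

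Among embryonic stem cell markers the median log2 ratio was -0.25, with 8 of 13 below a ratio of 1. The intervals farthest from a ratio of 1 were those of Lin28a (-1.01), Pou5f1 (-0.93), Dppa4 (-0.81) and Tdgf1 (-0.69). Of the 13 intervals, 7 lay below 1, 3 lay above 1 and 3 included it. Among measured genes with at least 1000 counts summed, 50.0% lay below 1 and 30.5% above. The 3 above were those of Nanog (0.24), Klf4 (0.22) and Dppa5a (0.07). Jarid2, at -1.17, was below the lowest of these 13.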
